A study of Mus musculus with 10 samples.

Results

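The genes for making, clearing and sensing prostaglandin E2 were followed in colonic organoids from PPARγ knockout and wild-type mice. There were 9 of them among the 18820 genes named on the array: Pla2g4a, Ptgs2, Ptges, Ptges2, Ptges3, Slco2a1, Hpgd, Ptgr1 and Ptger4. They were chosen by name, with earlier results of these data known. They were read through probe sets that carry a single gene symbol, with the brightest on average standing for the gene where there were several. Only Ptges3 had several.

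Expression was measured on Affymetrix whole-transcript arrays in epithelial cultures grown from colonic crypts of male mice on a C57BL/6 background. Knockout mice had loxP sites around exons 1 and 2 of Pparg and Cre recombinase driven by the villin promoter, so the deletion is aimed at the intestinal epithelium, and wild-type littermates were the controls. There were 3 mice of each genotype. PPARγ is a nuclear receptor with lipid ligands, and the drug rosiglitazone is its synthetic agonist. Cultures received 1 µM rosiglitazone or 0.1% DMSO, the vehicle, for 24 h. The 10 arrays fell into 4 groups: knockout with rosiglitazone (3 arrays, from mice 46, 45 and 44), knockout with vehicle (2 arrays, mice 46 and 44 again), wild type with rosiglitazone (3 arrays, from mice 48, 42 and 47) and wild type with vehicle (2 arrays, mice 42 and 47 again). Values are given in these mouse orders throughout. They are RMA expression on the log2 scale, so a difference of 1 is a doubling, and they order arrays for 1 probe set but do not rank genes by abundance.

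Prostaglandin E2 is a lipid signal made from arachidonic acid. A phospholipase releases the acid from membranes, a cyclooxygenase turns it into prostaglandin H2, and a prostaglandin E synthase converts that to prostaglandin E2. A transporter then carries the lipid into cells where a dehydrogenase inactivates it, while cell-surface receptors pass its signal on, and in the colon the signal acts on crypt growth, secretion and repair.

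The arrays themselves set some limits. Arrays of mouse 46 stood apart on the first principal component (27.4% of the variance), at 31.8 and 39.3, while the other 8 arrays lay between -19.6 and 4.10. All 8 arrays of the 4 mice with both treatments were closest to the other array of their own mouse, so arrays of 1 mouse are not independent. The probe set for Pparg differed by 0.02 between knockout and wild-type mouse means, and since the place of its probes in the gene is not given in the sources used here, it checks neither the deletion nor the labels. On the wild-type rosiglitazone array of mouse 48, textbook targets of PPAR receptors, a list not limited to PPARγ, did not stand above the vehicle arrays. The mean of 11 such genes, 5 of them above the median of the tested probe sets, was 5.00 on it. It was 5.60 and 5.92 on the arrays of mice 42 and 47 and 5.00 and 5.11 on the wild-type vehicle arrays. Some results for Ptges, Ptgs2, Slco2a1 and Hpgd are also given without this array. Other wild-type rosiglitazone and wild-type mouse means include it. Epithelial markers were bright, with all 9 of 9 above the median of the tested probe sets (4.51) and list means of 9.68 to 9.81, 9.54 to 9.74, 9.64 to 9.86 and 9.70 to 9.91 in the knockout rosiglitazone, knockout vehicle, wild-type rosiglitazone and wild-type vehicle arrays. Of the markers of other tissues, 0 of 10 for fibroblasts, 0 of 7 for endothelium, 0 of 7 for mast cells and 2 of 8 for macrophages and leukocytes (Cd68 and Cd14) lay above that median. In bulk RNA, fewer cells of a type and less RNA per cell cannot be told apart.

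Ptges encodes microsomal prostaglandin E synthase-1, the inducible enzyme of the final step, and it was the member whose genotypes separated most widely. It lies on chromosome 2 at chr2:30889471-30931020 of GRCm38.p6. The probe set read 3.95, 3.41 and 4.04 in knockout rosiglitazone arrays and 2.96 and 3.80 in knockout vehicle arrays, against 4.85, 5.18 and 5.21 in wild-type rosiglitazone arrays and 5.34 and 5.17 in wild-type vehicle arrays. Each of the 5 knockout arrays thus lay below each of the 5 wild-type arrays, with a gap of 0.81 between the highest knockout and the lowest wild-type array. The same complete separation downwards was seen for 1.02% of the 23099 tested probe sets, and upwards for 0.905%. By the width of the gap Ptges stood 6th among the 18820 genes, and by the size of the knockout minus wild-type difference of array means it stood 23rd from the lowest.

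Averaged first within each mouse, Ptges was 3.60 ± 0.28 in knockout mice and 5.10 ± 0.22 in wild-type mice (SD, n = 3 each). The difference was -1.503 (SE 0.18), which is 2.83-fold lower with a 95% interval of 2.15 to 3.74. It did not pass a threshold of 0.05 for the Benjamini-Hochberg adjusted p of limma over all tested probe sets (adjusted p = 0.0748), although Ptges stood 6th of them by p. An exact two-sided permutation test over the mice gave p = 0.1, the smallest that 3 against 3 mice allow. All 3 knockout mice lay below all 3 wild-type mice. Treating the 10 arrays as independent gave a difference of -1.52 with a limma adjusted p of 0.0119, but that fit counts most mice more than once.

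The same direction was found under each treatment. With vehicle Ptges averaged 3.38 in knockout and 5.26 in wild-type organoids, a difference of -1.88 (SE 0.28, n = 2 each, limma adjusted p = 0.208), or 3.67-fold lower. With rosiglitazone it averaged 3.80 ± 0.34 in knockout and 5.08 ± 0.20 in wild-type organoids (SD, n = 3 each), a difference of -1.28 (SE 0.23, limma adjusted p = 0.265), or 2.42-fold lower. Both differences were larger than the spread within groups and neither passed after adjustment. Across all probe sets limma called 0 in the vehicle comparison (0.0%), 5 in the rosiglitazone comparison (0.0216%) and 3 over mouse means (0.013%), and 0 of the 9 members were among them. At an unadjusted p under 0.05 the members counted 3, 1 and 1 in these comparisons, beside 1314, 1110 and 832 of all probe sets. Without the array of mouse 48 the difference was -1.39 with rosiglitazone, and without that mouse it was -1.63 over mouse means. Ptges averaged 4.39 over the arrays, below the median of the tested probe sets. RMA values of dim probe sets tend to understate a difference, and whether this held for Ptges was not tested.

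Of the marker lists, single macrophage and colonocyte values differed in the same direction as Ptges. Cd68, a lysosomal protein used as a macrophage marker, read 7.25, 6.96 and 7.75 in knockout rosiglitazone arrays and 7.38 and 7.79 in knockout vehicle arrays, against 7.90, 8.42 and 8.33 in wild-type rosiglitazone arrays and 8.45 and 8.38 in wild-type vehicle arrays. Its genotypes did not overlap, and its difference was -0.88 over mouse means (SE 0.22, limma adjusted p = 0.999). The mean of all 8 macrophage and leukocyte markers was 3.44 to 3.65 in knockout rosiglitazone and 3.46 to 3.63 in knockout vehicle arrays, against 3.58 to 3.71 in wild-type rosiglitazone and 3.59 to 3.71 in wild-type vehicle arrays. Over mouse means 5 of the 8 read higher and 3 lower in knockout, and Ptprc, Csf1r, Adgre1 and Itgam stayed between 2.02 and 2.95 on all arrays, far below the median of the tested probe sets. Of 9 mature colonocyte markers 8 were lower in knockout than in wild-type vehicle arrays, with the mean levels given beside Hpgd. Over mouse means 6 were lower and 3 higher. Car1 was among the lower ones (-0.70) and Slc5a8 among the higher ones (0.88), and for both the genotypes did not overlap. Complete separation of the arrays was seen for 1.02% of all tested probe sets downwards and 0.905% upwards. The part of these markers in the Ptges difference was not tested.

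The 300 bases around an annotated start of Ptges are shown because this gene carries the clearest genotype difference. They stand next to those of Hpgd, which had the next largest difference with vehicle. The sequences are RefSeq promoters of GRCm38.p6, from 250 bases before to 50 bases after the start, at chr2:30903248-30903547 on the minus strand for Ptges and chr8:56294302-56294601 on the plus strand for Hpgd. The Ptges window lies inside the span given above for the gene and not at its upstream end, so the matches below concern this start only. Capitals mark matches to the GC box GGGCGG on either strand.
Ptges: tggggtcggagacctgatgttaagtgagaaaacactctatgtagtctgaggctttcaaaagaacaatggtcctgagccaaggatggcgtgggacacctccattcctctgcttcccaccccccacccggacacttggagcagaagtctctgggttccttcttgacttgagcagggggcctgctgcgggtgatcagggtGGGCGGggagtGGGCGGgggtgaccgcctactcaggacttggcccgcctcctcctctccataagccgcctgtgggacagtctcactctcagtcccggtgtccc
Hpgd: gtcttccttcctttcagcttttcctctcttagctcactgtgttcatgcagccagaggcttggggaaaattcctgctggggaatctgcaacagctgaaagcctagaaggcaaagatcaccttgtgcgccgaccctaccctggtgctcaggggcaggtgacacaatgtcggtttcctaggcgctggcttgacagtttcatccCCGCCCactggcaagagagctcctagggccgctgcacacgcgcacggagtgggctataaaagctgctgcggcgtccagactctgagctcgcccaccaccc
The Ptges window held 2 GC boxes and the Hpgd window 1, while 35.7% of 32851 promoters of the same length held at least 1. The nuclear receptor half-site AGGTCA, searched on both strands, was in neither window. Of the 9 members only Pla2g4a had a match, against 16.3% of all promoters. Only this half-site was searched, and not a full receptor element. The core of the cAMP response element, TGACGT on either strand, was found only at Ptgs2, against 7.51% of all promoters. These are matches of letters and not binding sites. GC content was 60% for Ptges and 58% for Hpgd, beside a median of 52.7% over all promoters.

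**Figure D1:**
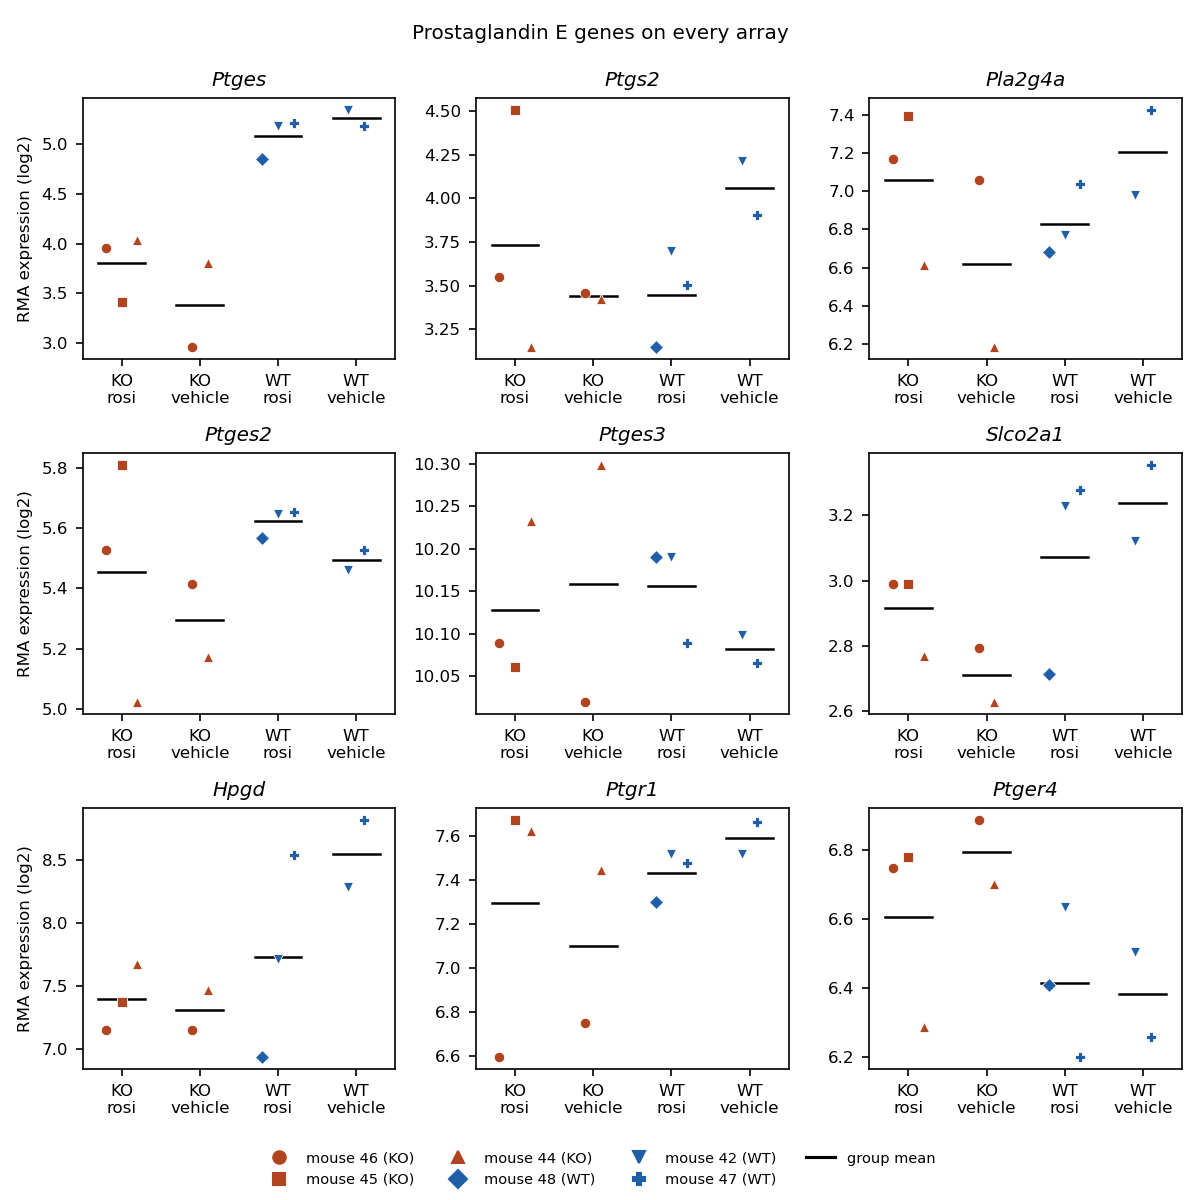
RMA expression (log2, vertical axis, with its own range in each panel) of the 9 genes on every array, by group along the horizontal axis; symbols stand for mice and black lines for group means. The knockout and wild-type arrays separate completely for Ptges, with a gap of 0.81, and overlap in the other 8 panels.

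Release of arachidonic acid and its oxidation came next. Pla2g4a encodes cytosolic phospholipase A2 alpha, which frees arachidonic acid from membrane phospholipids (chr1:149829618-149961290). It read 7.17, 7.39 and 6.62 in knockout rosiglitazone arrays and 7.06 and 6.18 in knockout vehicle arrays, against 6.68, 6.77 and 7.04 in wild-type rosiglitazone arrays and 6.98 and 7.43 in wild-type vehicle arrays. The genotypes overlapped under both treatments, and mouse 44 gave the lowest knockout value each time. The knockout minus wild-type difference was -0.58 (SE 0.31) with vehicle, 0.23 with rosiglitazone and 0.04 over mouse means (exact permutation p = 1). The vehicle value was -1.02 without the vehicle array of mouse 46 and -0.15 without that of mouse 44.

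Ptgs2 encodes cyclooxygenase-2, the inducible enzyme that makes prostaglandin H2 (chr1:150100031-150108234). It read 3.55, 4.51 and 3.15 in knockout rosiglitazone arrays and 3.46 and 3.42 in knockout vehicle arrays, against 3.15, 3.70 and 3.50 in wild-type rosiglitazone arrays and 4.22 and 3.90 in wild-type vehicle arrays. The highest value came from mouse 45, whose single array also had the highest mean of the 7 goblet cell markers, 8.12 against 3.83 to 6.42 in the other knockout arrays. The part of these markers in the Ptgs2 value was not tested. With vehicle both knockout arrays lay below both wild-type arrays, a difference of -0.62 (SE 0.36), while the mouse means differed by 0.16 (exact permutation p = 0.8). Ptgs2 averaged 3.66, among the dimmer probe sets. The constitutive cyclooxygenase Ptgs1 was not analysed here.

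On the probe sets used, the other synthases of the final step differed little between the groups. Another probe set of Ptges3 read otherwise, as given below. Ptges2 encodes a membrane-associated synthase of the Golgi (chr2:32395890-32402740), and it read 5.53, 5.81 and 5.02 in knockout rosiglitazone arrays and 5.42 and 5.17 in knockout vehicle arrays, against 5.57, 5.65 and 5.66 in wild-type rosiglitazone arrays and 5.46 and 5.53 in wild-type vehicle arrays. The 3 wild-type rosiglitazone arrays lay within 0.05 (SD) of each other, whereas the knockout ones spread by 0.40 (SD), with the highest and the lowest of all arrays among them. Mouse means differed by -0.11 between knockout and wild type (95% interval of the limma fit -0.51 to 0.29, exact permutation p = 0.7).

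Ptges3 encodes the cytosolic synthase also known as p23, a co-chaperone of Hsp90 (chr10:128058982-128077254). It read 10.09, 10.06 and 10.23 in knockout rosiglitazone arrays and 10.02 and 10.30 in knockout vehicle arrays, against 10.19, 10.19 and 10.09 in wild-type rosiglitazone arrays and 10.10 and 10.07 in wild-type vehicle arrays. The wild-type arrays lay within the range of the knockout arrays, whose highest values both came from mouse 44. The mouse means differed by -0.01 (95% interval of the limma fit -0.27 to 0.25, exact permutation p = 0.8).

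Which transcripts this probe set reads is uncertain. The platform gives the symbol Ptges3 to 3 probe sets, and although the gene lies on chromosome 10, 18 of the 20 annotated probe sets with the nearest identifiers to the brightest, 10511865, lie on chromosome 4. For probe set 10539649 the commonest neighbouring chromosome was 6 (17 of 20), and for 10367100 it was 10 (19 of 20), the chromosome of the gene. Probe set 10539649 followed the brightest one, with mouse 44 highest at 9.68 with rosiglitazone and 9.69 with vehicle. Probe set 10367100 did not: it read 7.16, 6.86 and 6.93 in knockout rosiglitazone arrays and 7.08 and 6.81 in knockout vehicle arrays, against 6.63, 6.57 and 6.79 in wild-type rosiglitazone arrays and 6.91 and 6.90 in wild-type vehicle arrays. On it the 3 knockout rosiglitazone arrays lay above the 3 wild-type rosiglitazone arrays, whereas the vehicle arrays overlapped. Near-identical copies of the gene could share its probes, and this was not tested.

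**Figure D2:**
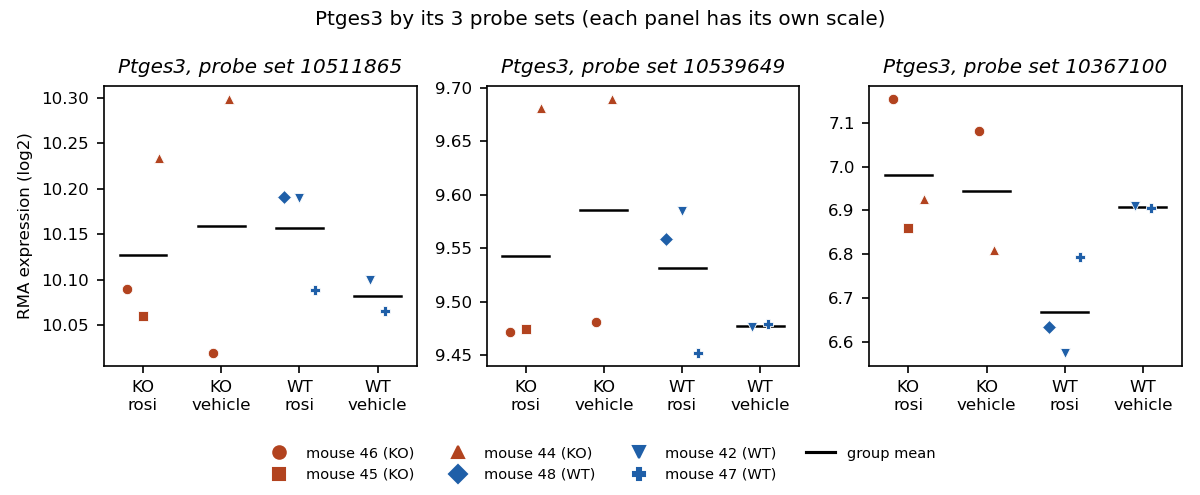
RMA expression (log2, vertical axis, own range per panel) of the 3 probe sets named Ptges3, by group; symbols stand for mice and black lines for group means. Mouse 44 is highest on the left and middle panels, and on the right panel mouse 46 is highest at 7.16 and 7.08.

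Uptake and breakdown were represented by Slco2a1, Hpgd and Ptgr1. Slco2a1 encodes the prostaglandin transporter, which carries prostaglandin E2 into the cell (chr9:103007061-103096002). It read 2.99, 2.99 and 2.77 in knockout rosiglitazone arrays and 2.79 and 2.63 in knockout vehicle arrays, against 2.72, 3.23 and 3.28 in wild-type rosiglitazone arrays and 3.12 and 3.36 in wild-type vehicle arrays. The vehicle groups did not overlap, and in the rosiglitazone groups wild-type mouse 48 lay below every knockout rosiglitazone array. The knockout minus wild-type difference was -0.53 with vehicle (SE 0.20, limma adjusted p = 0.846) and -0.21 over mouse means (exact permutation p = 0.3). Without mouse 48 the mouse means differed by -0.39. All its values were dim.

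Hpgd encodes 15-hydroxyprostaglandin dehydrogenase, the enzyme that inactivates prostaglandin E2 by oxidation (chr8:56294552-56321046). It read 7.15, 7.37 and 7.68 in knockout rosiglitazone arrays and 7.15 and 7.47 in knockout vehicle arrays, against 6.94, 7.72 and 8.54 in wild-type rosiglitazone arrays and 8.29 and 8.82 in wild-type vehicle arrays. Both knockout vehicle arrays lay below both wild-type vehicle arrays, but the rosiglitazone groups overlapped because wild-type mouse 48 gave the lowest value of all. With vehicle the difference was -1.24 (SE 0.41), 2.37-fold lower with a 95% interval of 1.26 to 4.47, and its limma adjusted p was 0.846 (unadjusted 0.0124). With rosiglitazone the difference was -0.33 (SE 0.34), and without both arrays of mouse 47 it was 0.07, while without mouse 48 it was -0.73. Mouse means were 7.36 ± 0.21 in knockout and 7.87 ± 0.88 in wild-type mice (SD, n = 3 each), an exact permutation p of 0.5. Their difference was -0.98 without mouse 48 and -0.10 without mouse 47, beside -0.51 with all mice.

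Most of the 9 markers of mature colonocytes differed in the same direction as Hpgd among the vehicle arrays. The mean level of all 9 was 5.44 to 5.61 in knockout vehicle arrays and 6.15 to 6.62 in wild-type vehicle arrays. In knockout 8 of 9 markers were lower, Slc5a8 was higher, and 0 were called. With rosiglitazone it was 5.85 to 6.28 in knockout and 5.55 to 6.44 in wild-type arrays, and the lowest of these, like the lowest Hpgd value, came from mouse 48. Of the 9 markers 7 lay above the median of the tested probe sets. Their part in the Hpgd difference was not tested.

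Ptgr1 encodes prostaglandin reductase 1, which reduces the 15-keto product of Hpgd and also inactivates leukotriene B4 (chr4:58965590-58987131). It read 6.59, 7.67 and 7.62 in knockout rosiglitazone arrays and 6.75 and 7.45 in knockout vehicle arrays, against 7.30, 7.52 and 7.48 in wild-type rosiglitazone arrays and 7.52 and 7.67 in wild-type vehicle arrays. Both arrays of mouse 46 were the lowest, and the other 3 knockout arrays fell in or near the wild-type range. Without mouse 46 the rosiglitazone difference turned, at 0.22 against -0.14 with all mice. Mouse means differed by -0.17 (exact permutation p = 0.9).

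Ptger4 encodes EP4, a receptor for prostaglandin E2 that signals through cAMP (chr15:5233399-5244187). It was the only member besides Ptges3 that read higher in knockout than in wild-type vehicle arrays. It read 6.75, 6.78 and 6.29 in knockout rosiglitazone arrays and 6.89 and 6.70 in knockout vehicle arrays, against 6.41, 6.64 and 6.20 in wild-type rosiglitazone arrays and 6.51 and 6.26 in wild-type vehicle arrays. The vehicle groups did not overlap, and in the rosiglitazone groups knockout mouse 44 lay among the wild-type arrays. The difference was 0.41 with vehicle (SE 0.21, limma adjusted p = 0.855), 0.19 with rosiglitazone (SE 0.17) and 0.29 over mouse means (SE 0.14, exact permutation p = 0.2). The effect is 1.23-fold over mouse means, with a 95% interval of the limma fit from 1.02-fold lower to 1.53-fold higher.

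**Figure D3:**
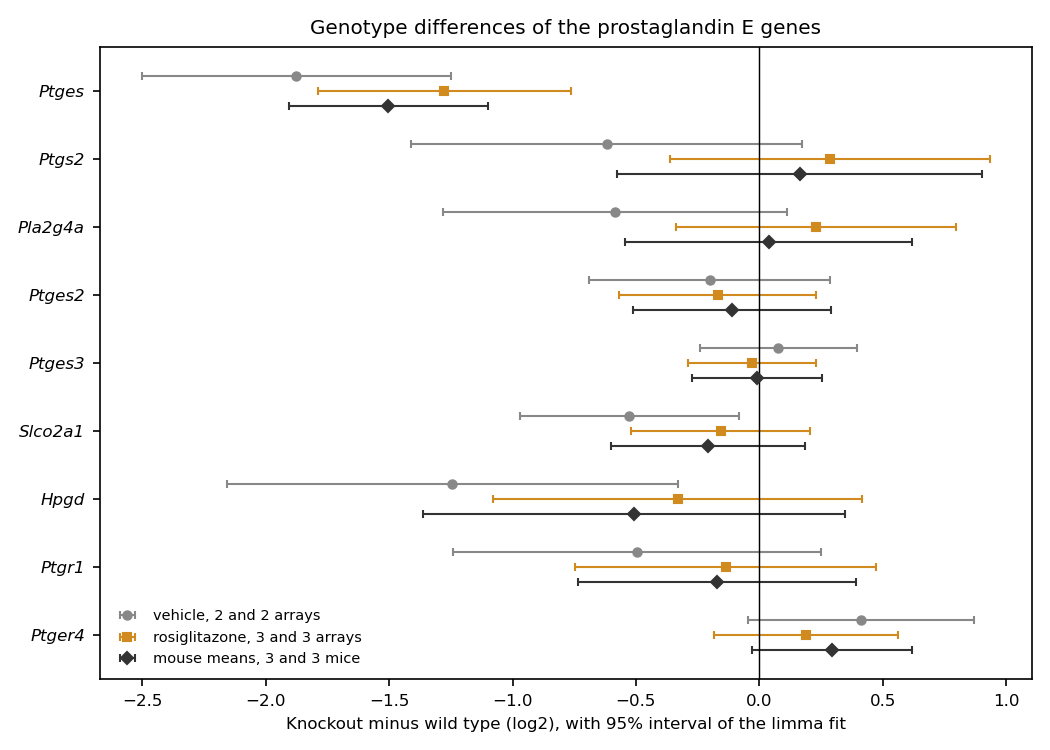
Knockout minus wild-type difference (log2, horizontal axis) of each gene with vehicle, with rosiglitazone and over mouse means; bars are 95% intervals of the limma fit, without adjustment for the number of genes. All 3 intervals of Ptges lie below 0, with estimates of -1.88, -1.28 and -1.503, and for Slco2a1 and Hpgd only the vehicle interval does.

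Counted together, 7 of the 9 members read lower and 2 higher in knockout than in wild-type vehicle arrays, with a median difference of -0.53. Over all tested probe sets the median was 0.03 and 55.6% were positive. With rosiglitazone 6 read lower and 3 higher, with a median of -0.14, beside 0.00 and 50.5% positive over all probe sets. Over mouse means 6 read lower and 3 higher, with a median of -0.11, beside 0.00 and 51.0% positive. These counts describe 9 genes measured on the same arrays and carry no test. With vehicle, both knockout arrays lay below both wild-type arrays for Ptges, Ptgs2, Ptges2, Slco2a1, Hpgd and Ptgr1. They lay above them for Ptger4, and the groups overlapped for Pla2g4a and Ptges3. How often 2 arrays separate from 2 over all probe sets was not counted.

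The drug comparisons asked whether rosiglitazone changed the members in organoids without or with the receptor. In knockout organoids limma called 0 of the 23099 probe sets (0.0%) and 0 members, with 706 probe sets at an unadjusted p under 0.05. In wild-type organoids it also called 0 (0.0%) and 0 members, with 229 at that unadjusted level, and for the difference between the responses it called 0 (0.0%) and 0 members, with 536. These fits had no term for the mouse, and 1155 probe sets are expected at that level when nothing differs. With mouse as a fixed replicate block, on the 4 mice with both treatments, the unadjusted counts were 1729, 889 and 1175. That fit also called 0 in each comparison. With mouse as a random replicate block, limma called 1 probe set in knockout, not a member. It called 0 in wild type and 0 for the difference between the responses. With so few arrays, the near absence of calls does not show that the drug had no effect. Textbook targets of PPAR receptors, a list not limited to PPARγ, were read as a check of the drug, and mouse 48 did not follow the other wild-type mice. Angptl4, which inhibits lipoprotein lipase, differed between rosiglitazone and vehicle by 0.14 and -0.19 within knockout mice 46 and 44 and by 1.44 and 2.41 within wild-type mice 42 and 47. On the 2 rosiglitazone arrays with no vehicle partner it read 4.79 in knockout mouse 45 and 2.89 in wild-type mouse 48, beside 3.44 and 3.52 on the wild-type vehicle arrays. Pdk4, a kinase that limits glucose oxidation, differed by -0.24 and -0.16 within the knockout mice and by 1.36 and 1.71 within the wild-type mice, and read 2.34 in mouse 48, beside 2.45 and 2.54 on the wild-type vehicle arrays. Plin2, a lipid droplet protein, differed by 0.11 and 0.20 within the knockout mice and by 0.75 and 0.71 within the wild-type mice. Other targets read higher with the drug in both genotypes: Cpt1a, which brings fatty acids into mitochondria, by 0.35 and 0.24 within the knockout mice and 0.39 and 0.45 within the wild-type mice, and Hadha, an enzyme of fatty acid oxidation, by 0.30 and 0.31 and by 0.44 and 0.50. None of these targets passed the adjusted threshold, and Cpt1a and Hadha were named after their values were seen.

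Ptges differed between rosiglitazone and vehicle by 0.42 in knockout organoids (SE 0.26) and by -0.18 in wild-type organoids (SE 0.26). Within mice the differences were 0.99 and 0.24 in knockout mice 46 and 44 and -0.16 and 0.03 in wild-type mice 42 and 47. Without both arrays of mouse 46 the knockout group difference was -0.08. That value also compares different mice, because it includes a rosiglitazone array from a knockout mouse with no vehicle array. It therefore does not show that the drug difference rested on mouse 46, and within mouse 44 the difference was 0.24. The difference between the responses, knockout minus wild type, was 0.60 (SE 0.36, 95% interval -0.21 to 1.41, limma adjusted p = 1.00). It was 0.18 without the vehicle array of mouse 46 and 1.02 without that of mouse 44.

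Among the other members, the within-mouse direction differed most plainly by genotype for Pla2g4a. It differed between rosiglitazone and vehicle by 0.11 and 0.43 in the knockout mice and by -0.21 and -0.39 in the wild-type mice, and the difference between the responses was 0.81 (SE 0.40, limma adjusted p = 1.00), with 1.25 and 0.38 when the vehicle array of mouse 46 or of mouse 44 was left out. For Ptgs2 the values were 0.09 and -0.27 in the knockout mice and -0.52 and -0.40 in the wild-type mice. For Hpgd they were -0.00 and 0.21 in the knockout mice and -0.57 and -0.28 in the wild-type mice. Both wild-type mice thus read lower with rosiglitazone for all 3 of these genes, whereas the knockout mice were on both sides of 0 or above it.

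In knockout organoids the group difference was 0.09 for Hpgd and 0.29 for Ptgs2. In wild-type organoids it was -0.82 for Hpgd (SE 0.38, limma adjusted p = 1.00) and -0.61 for Ptgs2 (SE 0.33). Both wild-type values include mouse 48, which had no vehicle array and gave the lowest wild-type value of each gene, and both exceed the within-mouse differences. Without it they were -0.42 for Hpgd and -0.46 for Ptgs2. Ptger4 read lower with rosiglitazone in both knockout mice, by -0.14 and -0.41, and differed by 0.13 and -0.06 in the wild-type mice. The remaining 4 members stayed within 0.20 of 0 in every mouse.

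**Figure D4:**
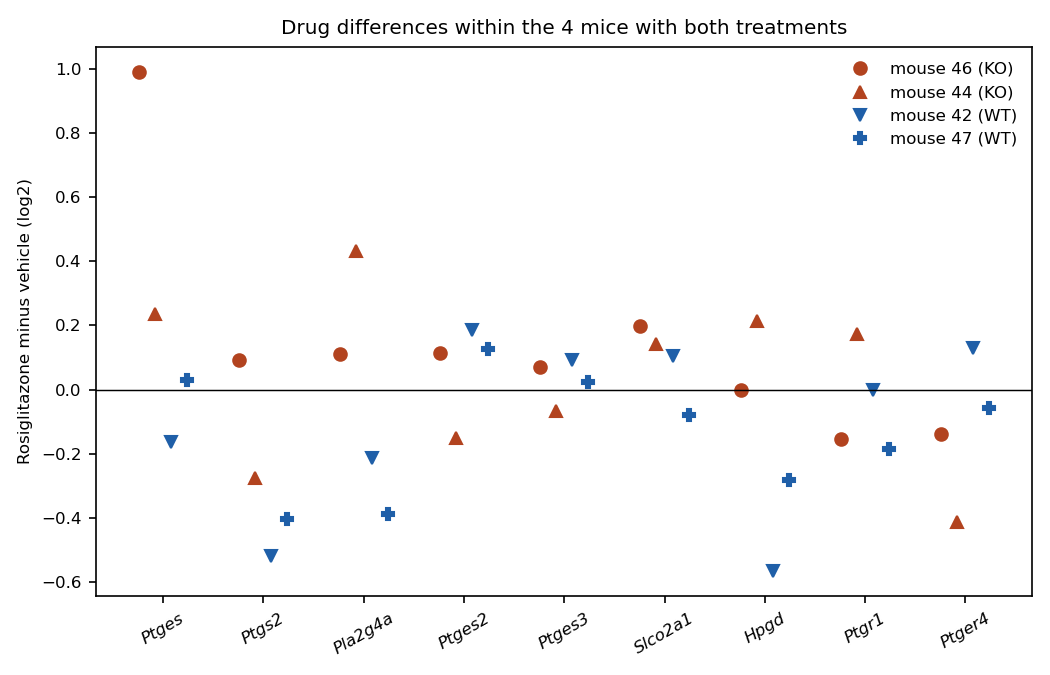
Rosiglitazone minus vehicle (log2, vertical axis) within each of the 4 mice that had both treatments, by gene along the horizontal axis; symbols stand for mice. Mouse 46 gives the widest value, 0.99 for Ptges, and for Pla2g4a the 2 knockout mice lie above 0 and the 2 wild-type mice below.

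Across genes, in knockout organoids 7 of 9 members read higher and 2 lower with rosiglitazone, with a median of 0.20, and in wild-type organoids 3 read higher and 6 lower, with a median of -0.17. Over all tested probe sets the medians were -0.01 in knockout and 0.01 in wild-type organoids, with 46.4% and 54.3% positive. Both comparisons stand on 2 vehicle arrays. The knockout one includes mouse 46, and the wild-type one includes mouse 48, which had no vehicle array. For the difference between the responses 7 members were positive and 2 negative, with a median of 0.37. Over all probe sets the median was -0.03 and 44.6% were positive. This comparison shares all arrays with the others.

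The rest of the pathway was taken from lists of 29 other prostanoid genes, of which 23 were measured, and 13 lipoxygenase and leukotriene genes, of which 12 were. In all 6 comparisons 0 of these 35 genes passed the threshold, and 8 lay above the median of the tested probe sets. For the prostanoid genes the median knockout minus wild-type difference was 0.01 with vehicle, 0.00 with rosiglitazone and 0.00 over mouse means, with 13, 12 and 12 of 23 positive. The drug medians of the same genes were 0.03 in knockout and 0.05 in wild-type organoids.

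Prxl2b, which encodes prostamide and prostaglandin F synthase, read 5.41, 5.52 and 5.38 in knockout rosiglitazone arrays and 5.15 and 4.60 in knockout vehicle arrays, against 4.53, 5.10 and 5.30 in wild-type rosiglitazone arrays and 5.08 and 5.45 in wild-type vehicle arrays. Its difference between the responses was 0.85 (SE 0.33, limma adjusted p = 1.00), the widest among the brighter non-members. Cbr1, a carbonyl reductase that can turn prostaglandin E2 into prostaglandin F2 alpha, differed by -0.30 over mouse means (SE 0.14). Abcc4, an exporter of prostaglandins, differed by 0.33 between rosiglitazone and vehicle in wild-type organoids (SE 0.15). Pla2g12a, a secreted phospholipase, differed by -0.27 between knockout and wild type with vehicle (SE 0.16). None of these passed the threshold. Ptger2, which encodes the EP2 receptor, and Hpgds, the prostaglandin D synthase of blood cells, averaged 2.22 and 2.39, far below the median of the tested probe sets, and their differences are not read here. Of 13 genes that respond quickly to cAMP, the second messenger of EP4, 0 passed in any comparison, with median knockout minus wild-type differences of 0.11 with vehicle and -0.05 with rosiglitazone.

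Over the 10 arrays the correlation of each member with Ptges was 0.66 for Hpgd, 0.65 for Slco2a1, 0.46 for Ptgr1 and 0.23 for Ptges2. It was 0.10 for Ptges3, 0.06 for Ptgs2, 0.03 for Pla2g4a and -0.71 for Ptger4. These values describe 10 arrays that share mice and genotypes, and a gene that differs between the genotypes is bound to follow Ptges.

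The genes whose pattern was most like that of Ptges were found among 9453 genes brighter than the median. They were Notch3 (r = 0.956), a Notch receptor, Tnfrsf18 (r = 0.953), the receptor GITR, Apol10a (r = 0.949), Sema3f (r = 0.943), a secreted semaphorin, and Foxd2 (r = 0.942), a forkhead transcription factor. Each read lower on all 5 knockout arrays than on all 5 wild-type arrays, a pattern that choosing genes by their correlation with Ptges largely fixes. Tnfrsf18 passed the brightness limit through its wild-type arrays, with 3.93 to 4.51 in knockout and 5.08 to 5.32 in wild-type arrays. Notch3 read 5.20, 4.91 and 5.25 in knockout rosiglitazone arrays and 4.96 and 5.17 in knockout vehicle arrays, against 5.76, 5.83 and 5.60 in wild-type rosiglitazone arrays and 5.89 and 5.64 in wild-type vehicle arrays. Apol10a read 6.13, 5.82 and 6.09 in knockout rosiglitazone arrays and 5.02 and 5.13 in knockout vehicle arrays, against 6.99, 8.01 and 7.74 in wild-type rosiglitazone arrays and 7.88 and 7.28 in wild-type vehicle arrays. Mouse 46 with vehicle gave the lowest value of Ptges, Tnfrsf18, Apol10a, Sema3f and Foxd2 alike, at 2.96, 3.93, 5.02, 4.68 and 4.72.

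**Figure D5:**
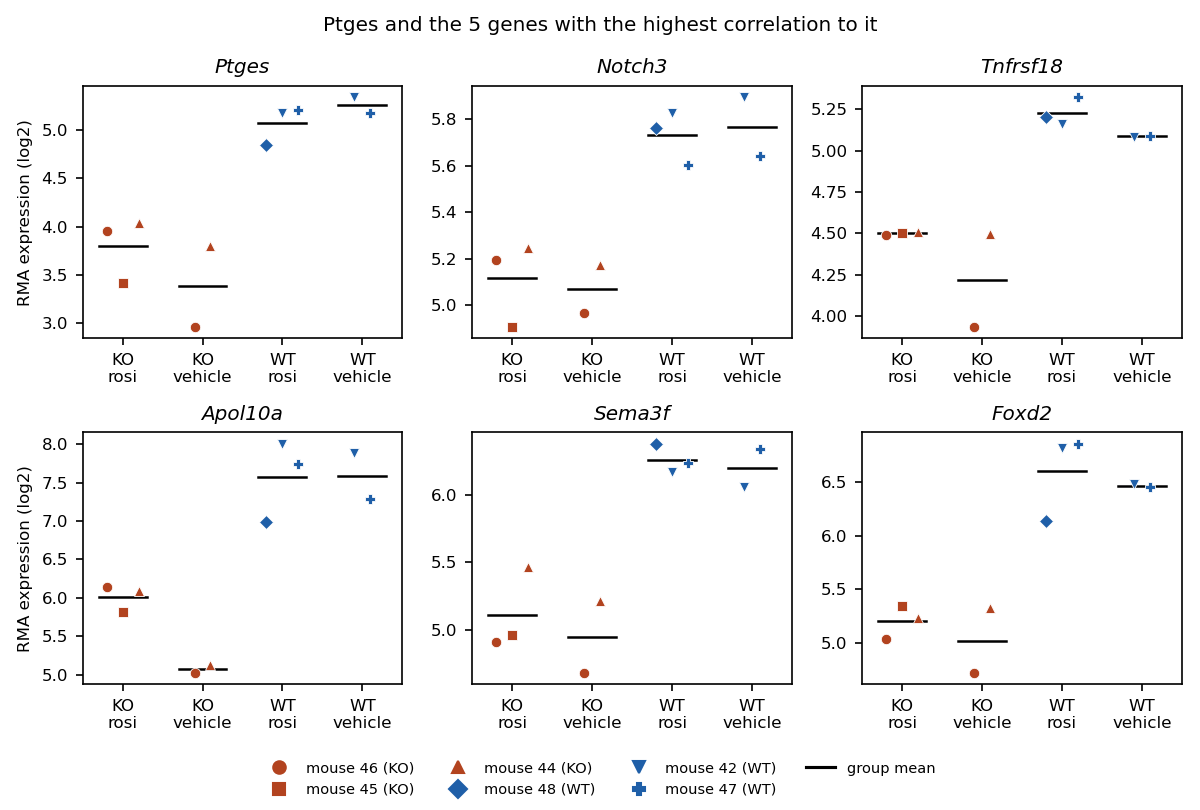
RMA expression (log2, vertical axis, own range per panel) of Ptges and the 5 genes with the highest Pearson correlation to it over the 10 arrays, by group; symbols stand for mice and black lines for group means. In all 6 panels the 5 knockout arrays lie below the 5 wild-type arrays, a pattern largely fixed by the choice of genes.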

How the data were processed

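RNA from 10 organoid cultures of 6 mice was hybridised to Affymetrix whole-transcript arrays. The deposited table holds log2 expression made by the authors with RMA, per the submitters' processing notes; its version and chip definition are not given in the sources used here. Of 35556 probe sets, 23099 with a gene in the platform annotation were tested, 21218 of them with a single symbol. Values ran from 0.73 to 13.55, and the number of arrays limits the precision. Group means over all 10 arrays were fitted with limma 3.58.1 in R 4.3.3 (lmFit, eBayes, two-sided, Benjamini-Hochberg over all 23099). A second fit used 1 mean per mouse, 3 against 3, with an exact permutation test (scipy 1.17.1). Replicates are organoid cultures of separate mice, paired by the labels' mouse numbers; differences between mice of 1 genotype correlated across treatments at 0.44 and 0.49. The group-mean fit was tested on simulated arrays for 1 comparison only, knockout minus wild type with rosiglitazone. Those arrays were independent of each other, unlike the arrays of 1 mouse here.

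The members and lists were chosen with earlier results of these data known. All members are named with every array. Other pathway genes were named if called, otherwise the 5 with the largest difference among those above the median, plus closest partners. Promoter sequences come from RefSeq. Alternatives covered the replicate block, left-out arrays and mice, filters, centring and the probe set of Ptges3. Ptgs1, Ptger1, Ptgdr2 and some other listed genes were not analysed here.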

Additional observations from a re-analysis of the deposited data

How the results depend on the processing

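Few arrays, 2 per vehicle group, limit these results, and a group left with 1 array is assumed to vary like the others. The number of called probe sets ranged over the alternatives from 0 to 1 for the drug in knockout, 0 to 0 for the drug in wild type and for the difference between responses, 0 to 6 for vehicle, 1 to 23 for rosiglitazone (5 as reported) and 0 to 35 for mouse means (3 as reported). Ptges kept its direction in each genotype alternative that included it; limiting the test to probe sets above the median left out Ptges, Ptgs2 and Slco2a1. Its ranges were -2.30 to -1.45 with vehicle, -1.40 to -1.08 with rosiglitazone, and -1.67 to -1.41 over mouse means when 1 mouse was left out. A single call arose, Ptges at -1.52 (limma adjusted p = 0.0119) with 10 arrays and no replicate block, which made 1 member called; with mouse as a random replicate block it was -1.51 (limma adjusted p = 0.101).

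No other value below was called under any alternative. Over mouse means, the 4 mice with both treatments gave -0.30 for Pla2g4a, -0.43 for Ptgs2 and 0.049 for Ptges3; no replicate block gave -0.10, -0.076 and 0.013; the random replicate block gave -0.027 for Pla2g4a and 0.00091 for Ptges3. With 1 mouse left out, mouse means ran from -0.17 to 0.32 for Pla2g4a, -0.21 to 0.40 for Ptgs2, -0.29 to 0.070 for Ptges2, -0.080 to 0.026 for Ptges3 and -0.36 to 0.14 for Ptgr1. With rosiglitazone, the 4 mice gave -0.013 for Pla2g4a, 0.022 for Ptges3 and -0.25 for Ptgs2. Leaving out mouse 47 gave 0.072 for Hpgd, mouse 44 gave 0.047 for Ptges2 and mouse 46 gave 0.22 for Ptgr1; leave-one-out ranges were -0.73 to 0.072, -0.35 to 0.047 and -0.33 to 0.22, and -0.10 to 0.58 for Ptgs2 and -0.082 to 0.0046 for Ptges3. With vehicle, Ptges3 was -0.063 without mouse 44 and ranged from -0.063 to 0.22.

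For the drug in knockout, leave-one-out ranges were -0.0025 to 0.84 for Ptges (-0.078 without mouse 46), -0.067 to 0.25 for Hpgd, -0.019 to 0.38 for Ptges2, -0.17 to 0.11 for Ptges3, -0.15 to 0.55 for Ptgr1 and -0.091 to 0.59 for Ptgs2. The fixed replicate block, like the 4 mice alone, gave -0.019 for Ptges2, 0.0021 for Ptges3 and -0.091 for Ptgs2, and Ptges3 was 0.055 without mouse 44. For the drug in wild type, leave-one-out ranges were -0.090 to 0.16 for Ptger4 and -0.28 to 0.014 for Slco2a1, which the fixed replicate block or the 4 mice alone put at 0.014. For the difference between responses, Ptges2 was -0.058 with the random and -0.17 with the fixed replicate block or the 4 mice, ranging from -0.15 to 0.25, and Ptges3 ranged from -0.25 to 0.034. The mean of the 3 Ptges3 probe sets gave 0.024 for that difference, 0.074 over mouse means, 0.098 with rosiglitazone and -0.037 for the drug in wild type; centring arrays gave 0.035 over mouse means, 0.040 with rosiglitazone and 0.042 for the drug in knockout. Other leave-one-out ranges that moved by over 1.5 times without a turn included -1.02 to -0.15 for Pla2g4a, -0.85 to -0.15 for Ptgr1 and -0.32 to -0.080 for Ptges2 with vehicle, and -0.98 to -0.10 for Hpgd and -0.39 to -0.085 for Slco2a1 over mouse means. For the difference between responses they included 0.18 to 1.02 for Ptges, 0.38 to 1.25 for Pla2g4a, 0.52 to 1.199 for Ptgs2, 0.52 to 1.32 for Hpgd, 0.19 to 0.49 for Slco2a1, 0.0092 to 0.71 for Ptgr1 and -0.35 to -0.065 for Ptger4. For the drug they included 0.0015 to 0.88 for Pla2g4a in knockout, and -0.60 to -0.15 for Pla2g4a and -1.22 to -0.42 for Hpgd in wild type. The cause of these moves and turns in sign was not tested.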

Other observations

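Alox5, the 5-lipoxygenase that starts leukotriene synthesis from the same arachidonic acid, read lower in knockout organoids on average, and its partner Alox5ap read higher. It read 3.99, 3.17 and 3.56 in knockout rosiglitazone arrays and 3.87 and 4.01 in knockout vehicle arrays, against 4.14, 4.92 and 3.88 in wild-type rosiglitazone arrays and 4.87 and 4.85 in wild-type vehicle arrays. The vehicle groups did not overlap, while wild-type mouse 47 with rosiglitazone lay among the knockout arrays. The knockout minus wild-type difference was -0.92 with vehicle (SE 0.32, limma adjusted p = 0.846), -0.74 with rosiglitazone (SE 0.26, limma adjusted p = 0.958) and -0.84 over mouse means (SE 0.24, limma adjusted p = 0.999). Alox5 averaged 4.13, below the median of the tested probe sets. Alox5ap, the membrane protein that presents arachidonic acid to Alox5, read 3.28, 3.18 and 3.47 in knockout rosiglitazone arrays and 3.85 and 3.80 in knockout vehicle arrays, against 2.90, 3.13 and 2.83 in wild-type rosiglitazone arrays and 2.88 and 3.00 in wild-type vehicle arrays. Its genotypes did not overlap, all its values were dim, and its difference was 0.88 with vehicle (SE 0.16, limma adjusted p = 0.363) and 0.52 over mouse means (SE 0.14, limma adjusted p = 0.999). Alox5ap was named after its values were seen. Lta4h, which makes leukotriene B4 in the following steps, read higher in knockout, like Alox5ap and unlike Alox5. Its difference was 0.40 over mouse means (SE 0.15, limma adjusted p = 0.999). Ltc4s, which makes leukotriene C4, averaged 2.72, below the median of the tested probe sets. Over the 12 measured lipoxygenase and leukotriene genes, 7 read higher and 5 lower in knockout over mouse means, with a median of 0.02, and 0 passed the threshold.

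Markers of tuft cells, an epithelial source of prostaglandins, were dim: 0 of 10 lay above the median of the tested probe sets. Their mean was 2.81 to 3.03 in knockout rosiglitazone arrays and 2.96 to 2.99 in knockout vehicle arrays, against 2.88 to 3.04 in wild-type rosiglitazone arrays and 3.03 to 3.12 in wild-type vehicle arrays. Goblet cell markers ranged most widely, from 3.83 to 8.12 in knockout rosiglitazone arrays and 3.94 to 5.65 in knockout vehicle arrays, against 4.26 to 5.35 in wild-type rosiglitazone arrays and 5.15 to 5.82 in wild-type vehicle arrays. Stem cell markers lay between 6.38 and 7.26 over all arrays. The 11 textbook PPAR targets had a median drug difference of 0.03 in knockout and 0.23 in wild-type organoids, with 0 called in either.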
